A study of Mus musculus with 2 samples.

Results

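The genes Mir143, Mir145a and Mir145b were examined, 3 of the 1973 microRNA genes in the tables, chosen by matching gene identifiers to their symbols. The libraries were prepared from small RNA (under 30 bases) of lungs of B6NCrl mouse embryos at embryonic day 16.5, with lungs of both sexes combined in each. They form 1 group of 2 biological replicates with no treatment and no second condition, and the pool of replicate 2 came from 41 embryos. A lung pool holds airway and vascular smooth muscle together with all other lung cells, so fewer cells of a type and less RNA per cell cannot be told apart.

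Mir143 and the Mir145a gene beside it are known to be made from a shared primary transcript, which is processed into separate hairpins and then into mature microRNAs that repress messenger RNAs. They are abundant in smooth muscle, where serum response factor and myocardin drive the locus and the microRNAs favour the contractile over the proliferating state. In the developing lung, smooth muscle surrounds both the airways and the vessels.

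In these lungs Mir143 was the third most abundant microRNA gene in both libraries, Mir145a lay far below it, and Mir145b had no reads. Mir143 reached 71247 CPM ± 1447 (SD, n = 2), where CPM is a gene's counts per 1000000 counts over all microRNA genes. Mir145a reached 1077 CPM ± 61.0 (SD, n = 2). Mir143 thus held 7.13% ± 0.145 of all gene counts and Mir145a 0.108% ± 0.0061 (SD, n = 2).

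The members lie on mouse chromosome 18, minus strand (mm10). Mir143 (ENSMUSG00000065445.2) spans 61649196 to 61649258 and Mir145a (ENSMUSG00000065592.1) spans 61647825 to 61647894, with 1301 bases between them. Neither overlaps another annotated gene. The long noncoding RNA gene Carmn, named for its role in the cardiac mesoderm and known as the host of both microRNAs, ends 366 bases upstream of Mir143 in this annotation (61649625 to 61665537). Mir145b (ENSMUSG00000098366.1) spans 69022199 to 69022273, which is 7.37 Mb from Mir143. It overlaps no other gene and is a separate locus, so only Mir143 and Mir145a form a genomic cluster.

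The annotated hairpins differed in length and predicted stability. That of Mir143 has 63 bases, 55.6% G or C and a predicted folding energy of -36.9 kcal/mol, or -0.586 per base. That of Mir145a has 70 bases, 48.6% G or C and -0.433 kcal/mol per base, and that of Mir145b has 75 bases, 46.7% G or C and -0.335 per base. The median over the 347 genes with at least 10 counts in each library, called detected here, was -0.435 per base. Mir143 was therefore predicted to fold more stably per base than the median detected gene, and Mir145a was close to it. Over the whole hairpin, Mir143 was near the median of detected genes, which was -37.2 kcal/mol. Their median length was 85 bases, so the difference for Mir143 holds per base only. The longest run of bases shared by the Mir145a and Mir145b hairpins was 17, and that shared by Mir143 and Mir145a was 5. None of the 3 hairpins shared 22 bases with any other microRNA gene in the tables, whereas 876 genes did.

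Replicate 1 had 6376715 gene counts and replicate 2 had 4123748. Reads that matched several loci, which are not assigned to any gene, made up 29.97% and 31.8% of all reads in the tables. Ranks and shares here therefore cover assigned reads only, and genes with shared sequences may be counted too low. Counts per gene join both arms of a hairpin, so guide and passenger strands were not measured separately.

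Mir143 had 447801 counts in replicate 1 and 298024 in replicate 2. These are 70224 CPM (95% exact Clopper-Pearson interval 70026 to 70423) and 72270 CPM (72020 to 72521). The libraries were close in this gene, with a coefficient of variation of 2.03%. Intervals here cover counting error only, since copies made by PCR were not told apart from separate molecules.

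Mir145a, whose mature product is known for promoting smooth muscle differentiation, had 6594 counts in replicate 1 and 4620 in replicate 2. These are 1034 CPM (1009 to 1059) and 1120 CPM (1088 to 1153). It ranked 97th and 96th, and its coefficient of variation was 5.66%. Both members lay above the median detected gene (180.2 CPM), Mir143 by 395-fold and Mir145a by 5.98-fold.

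Mir145b had 0 counts in replicate 1 and 0 in replicate 2, which allows up to 0.470 CPM and 0.727 CPM (3 counts each). Mir145a was thus at least 2198-fold higher than Mir145b in replicate 1 and at least 1540-fold higher in replicate 2. Having no counts was common, since 1264 genes (64.1%) had 0 in both libraries. A read too short to tell the Mir145a and Mir145b sequences apart would be placed among reads that match several loci, and how many such reads there were was not measured.

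**Figure D1:**
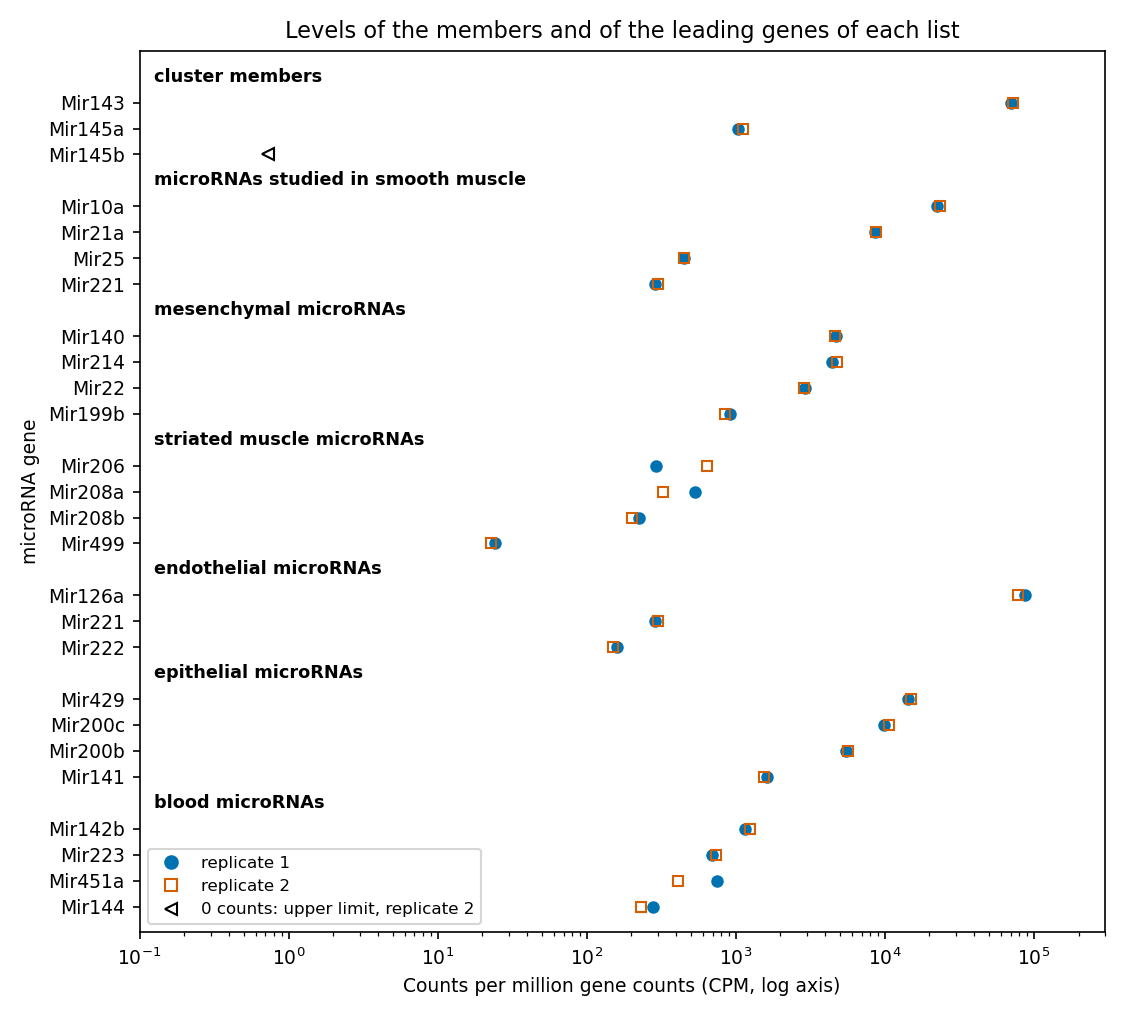
CPM of each member and of up to 4 leading genes of each list (log axis), with a filled circle for replicate 1 and an open square for replicate 2. The open triangle is the upper limit of 0.727 CPM for Mir145b in replicate 2. Mir143 sits at 70224 and 72270 CPM, and only Mir126a lies above it among the genes drawn.

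In order of level, Mir143 was separated from its neighbours and Mir145a was not. By mean CPM, Mir126a, a microRNA of endothelial cells, was just above Mir143 at 87277 CPM in replicate 1 and 79120 in replicate 2. Mir322 was first by mean CPM, at 83213 and 86140, but Mir126a was above it in replicate 1. Mirlet7g was just below at 64351 and 61051, followed by Mirlet7i and Mir335. The range of Mir143 over the libraries overlapped that of 0 of these 5 genes. For Mir145a, 5 of 6 neighbours overlapped its range of 1034 to 1120 CPM. Just above it were Mir96 (1142 and 1093 CPM), a microRNA of sensory cells, and Mir1193 (1017 and 1222). Just below were Mir134 (983 and 1075) and Mir200a (1076 and 979), the latter an epithelial microRNA. Mir181b-2 also overlapped it, and Mir708 (1179 and 1144 CPM) lay above it in both libraries. The rank of Mir145a among these 5 genes is therefore not resolved by 2 libraries.

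**Figure D2:**
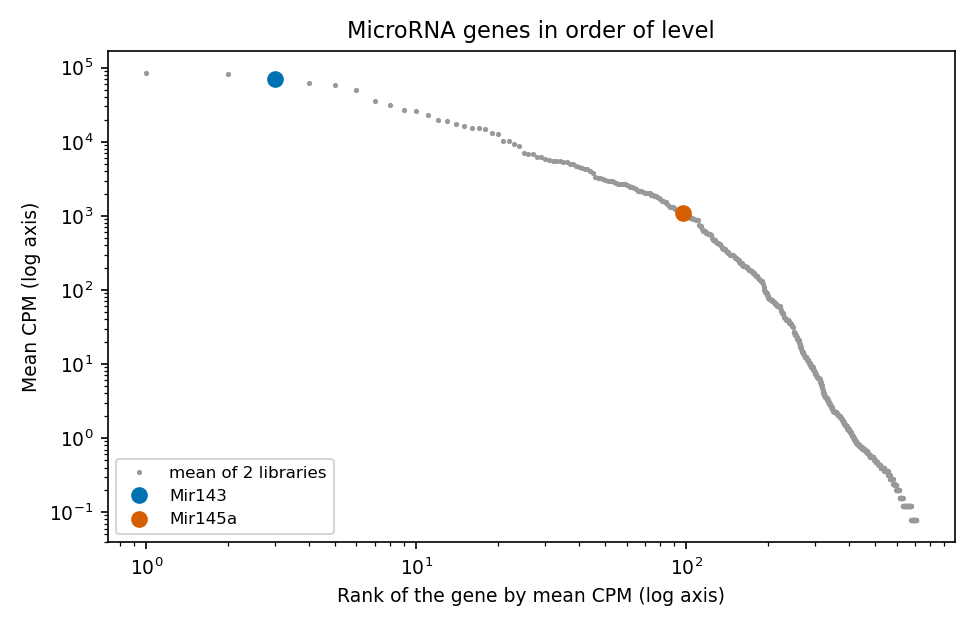
Mean CPM of every microRNA gene with counts against its rank (both axes log), with Mir143 and Mir145a marked. Mir143 lies on the flat top of the curve at rank 3, and Mir145a at rank 97, where many genes have nearly the same level.

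Although the pair is known to share a precursor, Mir143 exceeded Mir145a by a wide margin in both libraries. The ratio of their counts was 67.9 in replicate 1 (95% exact Clopper-Pearson interval 66.3 to 69.6) and 64.5 in replicate 2 (62.7 to 66.4), with a mean of 66.2 ± 2.40 (SD, n = 2). Dividing by annotated hairpin length gave a ratio of mean levels of 73.5. Reads under 30 bases need not scale with that length, so this is not a corrected level. Mir143 took 98.6% of the counts of the pair in replicate 1 and 98.5% in replicate 2. A ratio of CPM compares counted reads, and how completely each microRNA was captured in the libraries was not measured.

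The ratio itself differed slightly between the libraries, by 1.05-fold (two-sided Fisher's exact test, p = 0.00802). This ratio does not depend on scaling to library totals. Of the 94 neighbouring pairs described next, 41.5% differed between the libraries by the same test after Benjamini-Hochberg adjustment, and the Mir143 pair was among them (adjusted p = 0.0218, Fisher's exact test). Its shift was 0.07 on the log2 scale, and the median size over the pairs was 0.18. The pair thus moved between the libraries by less than most neighbouring pairs, with 21 of 94 moving less than it did.

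To place the 66.1-fold difference in mean CPM, neighbours on 1 strand with up to 10 kb between them and no other microRNA gene of the tables between them were compared, where both genes were detected. Over 94 such pairs the median fold of the higher over the lower gene was 8.15 (quartiles 2.28 and 33.8), and 17 pairs (18.1%) had a larger fold than Mir143 over Mir145a. In 72 pairs neither gene shared 22 bases with another microRNA gene, and the median was 6.39. Of these, 9 (12.5%) had a larger fold. A wide difference between neighbours was thus common, and that of Mir143 and Mir145a lay in the upper part of the range.

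The pairs nearest to it in fold included other well known clusters. Just above was Mir18 over Mir19a of the miR-17-92 cluster, known for promoting proliferation (69.7-fold, 2994 and 42.9 CPM). Next came Mir206 over Mir133b of skeletal muscle (70.8-fold, 469 and 6.62 CPM). Just below were Mir23a over Mir27a (57.7-fold, 15400 and 267 CPM) and Mir30d over Mir30b (43.6-fold). These genes share no 22 bases with another gene in the tables, a rule that does not cover shorter shared runs.

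**Figure D3:**
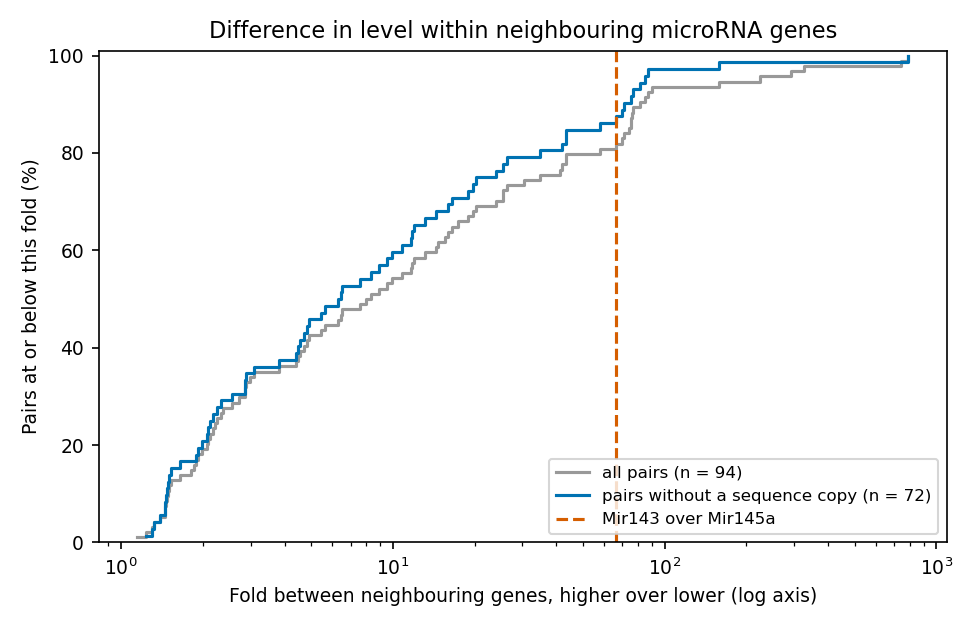
Cumulative share of neighbouring microRNA gene pairs (percent) against the fold of the higher over the lower gene (log axis), for all 94 pairs in grey and the 72 without a sequence copy in blue. The dashed line marks Mir143 over Mir145a at 66.1-fold, with 18.1% and 12.5% of pairs to its right.

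Both detected members were counted entirely on the annotated strand. Mir143 had 0 opposite-strand counts in both libraries, which allows up to 0.00067% of its counts in replicate 1 and 0.00101% in replicate 2. Mir145a also had 0, which allows up to 0.0455% and 0.0649%. Over the detected genes, 88.2% had 0 opposite-strand counts in replicate 1 and 89.0% in replicate 2, so this was the usual state. Among the 97 genes at or above the level of Mir145a, 74 had 0 in each library. Counts on the opposite strand made up 2.64% and 2.71% of all gene counts, none of them at these members.

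Between the libraries, both members were slightly higher in replicate 2 when scaled to gene totals. Mir143 was 1.03-fold higher (95% interval 1.02 to 1.03, adjusted p = 6.1e-33) and Mir145a 1.08-fold higher (1.04 to 1.13, adjusted p = 0.000102), by a two-sided exact binomial test with Benjamini-Hochberg adjustment over 347 genes. That test called 47.0% of the genes, 16.4% as higher in replicate 1 and 30.5% as higher in replicate 2. Calls in either direction were more common at high levels, with 95.5% at 10000 CPM or more and 85.9% at 1000 CPM or more. A call was therefore usual in the set of genes that holds each member, with Mir145a near the lower end of its set. The test compares the reads of these libraries and holds no estimate of the spread between pools.

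The direction of Mir143 depended on the scaling. With edgeR's TMM factors it was 1.01-fold higher in replicate 1 (adjusted p = 0.00638, exact binomial test, 44.1% of genes called), and with DESeq2's size factors the fold was 1.00 (0.997 to 1.01, adjusted p = 0.585, exact binomial test, 45.0% called). Mir145a stayed higher in replicate 2 under both, by 1.05-fold (1.01 to 1.09) with TMM and 1.05-fold (1.01 to 1.09) with size factors, with adjusted p of 0.0487 and 0.0234 (exact binomial test). The calls split into 57 higher in replicate 1 and 106 in replicate 2 by gene totals, 78 and 75 with TMM, and 76 and 80 with size factors.

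In size, the difference of Mir143 was below the median of the genes at 10000 CPM or more. That of Mir145a was slightly above the median of the genes at 1000 CPM or more. Mir145a lay near the lower end of that set in level. The log2 ratio of replicate 1 over replicate 2 was -0.04 for Mir143 and -0.12 for Mir145a, and the median size over all detected genes was 0.16. Among the 22 genes at 10000 CPM or more the median size was 0.100, and 3 of them were closer between the libraries than Mir143. Among the 99 genes at 1000 CPM or more it was 0.106, and 55 were closer than Mir145a.

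**Figure D4:**
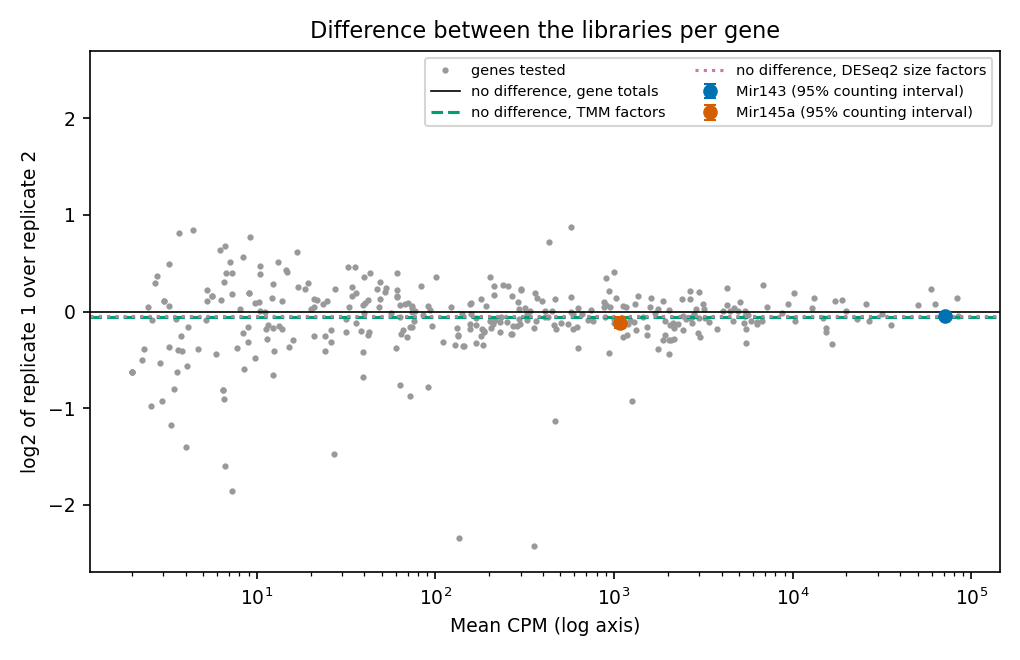
Log2 of replicate 1 over replicate 2 against mean CPM (log axis) for the 347 detected genes, with Mir143 and Mir145a and their 95% counting intervals, which are narrower than the symbols. The horizontal lines mark no difference under each scaling, and Mir143 (-0.04) lies between the line for gene totals and those for TMM factors and size factors.

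Over only 2 libraries, many genes have nearly the same ratio as a member. Among 194 genes of 100 CPM or more, those nearest to Mir143 were Mir106b (5326 and 5494 CPM), Gm24083 (2396 and 2473) and Mir200b (5544 and 5673), with log2 ratios of -0.04, -0.05 and -0.03. Those nearest to Mir145a were Mir361 (2062 and 2234 CPM), Mir744 (5136 and 5562) and Mir375 of neuroendocrine cells (2614 and 2831), each with a log2 ratio of -0.115 beside -0.116 for Mir145a.

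Other microRNAs studied in smooth muscle were lower than Mir143 in the counted reads. Of 22 listed, 19 were measured and 14 detected, and together they held 3.34% ± 0.0996 of gene counts (SD, n = 2), so Mir143 alone exceeded their sum by 2.15-fold in replicate 1 and 2.12-fold in replicate 2. None was above Mir143 and 2 were above Mir145a. These were Mir10a (23047 CPM ± 851) and Mir21a, which promotes smooth muscle growth (8695 ± 69.2). Mir25 stood at 448 ± 1.17 and Mir221, linked to smooth muscle proliferation, at 295 ± 11.8 (SD, n = 2). By the exact binomial test with gene totals, 4 of the 14 were higher in replicate 2 (Mir10a, Mir328, Mir29a and Mir133b) and 0 in replicate 1. Over all genes tested 30.5% were higher in replicate 2 and 16.4% in replicate 1, so the share higher in replicate 2 was near the background. With TMM or size factors the list's counts were 4 and 1, the added gene being Mir21a. The list's median log2 ratio was -0.07, and that of all genes tested was -0.05. In this list 9 genes share 22 bases with another gene and may be counted too low.

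Mesenchymal microRNAs (9 of 9 detected) held 1.33% ± 0.00621 of gene counts (SD, n = 2). Mir140, known from cartilage, was at 4692 CPM ± 83.3, Mir214 at 4608 ± 216, Mir22 at 2890 ± 43.8 and Mir199b at 882 ± 41.5 (SD, n = 2). Mir143 lay 15.2-fold above Mir140, and 3 of the 9 lay above Mir145a. In this list 2 genes were called higher in each replicate (3 in replicate 1 and 2 in replicate 2 with TMM or size factors), beside 47.0% of all genes called in either direction. The median log2 ratio was 0.10, and 5 share 22 bases with another gene and may be counted too low.

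Striated muscle microRNAs, which cover heart and skeletal muscle, were low in the counted reads and varied more between the libraries than Mir143. They held 0.108% of gene counts in replicate 1 and 0.120% in replicate 2, with 5 of 8 measured genes detected and 2 called higher in each replicate under all 3 scalings, beside 16.4% of all genes called higher in replicate 1 and 30.5% in replicate 2 by gene totals. Mir206 of skeletal muscle was at 294 and 643 CPM, Mir208a of heart at 536 and 324, Mir208b at 225 and 200 and Mir499 at 24.2 and 22.8. Mir1a-1, Mir133a-1 and Mir133a-2 had 0 counts and each shares 22 bases with another gene, so they may be counted too low. Mir143 exceeded the counted sum of this list by 64.9-fold in replicate 1 and 60.2-fold in replicate 2. These folds may be too high for that reason.

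Lists for other lung cells gave the range in which the members lay. The endothelial genes (3 of 3 detected) held 8.77% of gene counts in replicate 1 and 7.96% in replicate 2, nearly all of it Mir126a, with Mir221 and Mir222 (156 CPM ± 6.33) far lower. The epithelial miR-200 genes (5 of 5 detected) held 3.26% and 3.39%, led by Mir429 (14764 ± 461), Mir200c (10279 ± 499), Mir200b (5608 ± 91.0) and Mir141 (1587 ± 35.8). Blood genes (5 of 5 detected) held 0.291% and 0.268% with both strands counted. Highest by those counts were Mir142b (1204 ± 76.6), Mir223 (719 ± 30.2), Mir451a of red cells (578 ± 240) and Mir144 (255 ± 32.9). With only the annotated strand counted, the mean blood share was 0.1635% rather than 0.2795%. Part of the blood counts thus lay on the opposite strand, and which genes held them is not given here. Over all genes tested, 16.4% were called higher in replicate 1 and 30.5% in replicate 2 by gene totals. In the endothelial list 1 gene was called higher in replicate 1 and 0 in replicate 2 under all 3 scalings. For the epithelial list these counts were 1 and 3 by gene totals, 2 and 1 with TMM and 2 and 2 with size factors. For the blood list they were 2 and 2, and 2 and 1 with either other scaling. The median log2 ratios were 0.08, -0.03 and -0.02. Only Mir126a in these lists lay above Mir143. The cell of origin of each microRNA was not measured.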

How the data were processed

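Small RNA of 2 libraries from embryonic lung was analysed. The deposited values are raw counts of reads per microRNA gene, on mm10 with GENCODE annotation M4 per the file headers. For the aligner, counting program and trimming, names and settings were not given in the sources used here. Counts from the unstranded column were used. By its values it is the sum of the sense and opposite-strand columns. Summary lines stayed out of totals. They hold 50.45% of reads in replicate 1 and 51.2% in replicate 2, unmapped and multiply matching reads included. Nothing in the labels says whether the pools share litters, so p-values measure only the reads of these libraries.

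Symbols and positions (1-based) come from GENCODE M21, matched by identifier without version (1894 of 1973). CPM scales gene counts to 1000000. Genes with at least 10 counts in each library were tested by a two-sided exact binomial test against library totals, with Benjamini-Hochberg adjustment at 0.05. A single group gives a count model no contrast to test, so edgeR 4.0.16 and DESeq2 1.42.0 (R 4.3.3) gave only scaling factors. Hairpins were folded with RNAfold 2.7.2. Other steps used Python 3.11.15, numpy 2.4.6, scipy 1.17.1, pandas 2.3.3 and matplotlib 3.10.9. Only the binomial test was tried on simulated counts, which held counting error but no spread between pools. A sequence copy is a hairpin sharing 22 bases, on either strand, with another gene.

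The members, lists and tests were chosen with earlier results of these data known. Named genes are the members, the 3 genes above and below each in level, the 3 nearest in library ratio at 100 CPM or more, the 2 pairs on each side in fold and the 4 highest genes of each list, plus those named to complete a count. Mir24-1, Mir146a, Mir1a-2, Mir126b and Mir142 were not matched and are not analysed here. Alternatives covered scaling, count column, count minimum, distance, shared bases and each replicate left out. Adjusting Fisher's exact test over pairs was added after seeing the data.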

Additional observations from a re-analysis of the deposited data

How the results depend on the processing

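Of 73 values recomputed under alternatives, 63 kept their direction and call, or moved by less than the spread used to judge them. Some of the 63 could not have changed. With 2 libraries, leaving 1 out always moves a mean by less than their SD. The sense-strand column cannot alter the ratio of members that have no opposite-strand counts. The count of 63 therefore says little about how stable the results are. With all reads in the tables as the total, the mean fell to 35028 CPM for Mir143 and 529.5 for Mir145a, since that total holds unassigned reads. Without Mir322 in the total the means were 77840 and 1177 CPM. With the sense-strand column the mean of Mir143 was 73208 CPM, the members' share 7.43%, the mesenchymal share 1.37% and the blood share 0.164%. The log2 ratio of Mir143 between the libraries (-0.04) reversed to 0.0104 with TMM factors and 0.0025 with DESeq2's size factors, so its direction is not settled. No paired analysis was possible because there is a single group. Leaving out a replicate leaves 1 library, which gives a value with no test. The counting intervals hold no spread between pools, and that spread rests on 2 libraries.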
